A study of Homo sapiens with 6 samples.

Results

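Interferon-stimulated and MHC class I genes were followed in C4-2B, an established line of human prostate cancer cells that descends from LNCaP. The 41 members were chosen by gene name as 8 genes of antigen presentation, 22 genes of the interferon response and 11 signalling factors. The gene table holds 36 of them among its 11844 genes, namely all 8, 18 and 10. IFIT1, IFIT3, MX1, OAS1 and IRF1 were not in the gene table and were not analysed there.

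Total RNA came from stable sublines kept in RPMI1640 with 10% FBS. The 3 LINC00888 libraries carried pcDNA 3.1 with LINC00888, a long noncoding RNA, and the 3 empty vector libraries carried the pcDNA 3.1 vector only. By the labels, quantitative PCR of this RNA gave LINC00888 at 15.27 ± 2.4 (SD) times its level in the control. The labels name no interferon treatment. They do not say whether separate cultures or sublines stood behind the libraries of a group, so p-values measure only the spread between these libraries, which may be technical, and any other difference between sublines cannot be told apart from the vector.

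Interferons are secreted proteins that cells release when sensors such as the RNA helicases RIG-I (gene DDX58) and MDA5 (gene IFIH1) bind viral RNA. They act through receptor chains and the kinases JAK1 and TYK2 on transcription factors that include STAT2 and IRF9, which bind a response element in the promoters of target genes. MHC class I molecules carry peptides to the cell surface for inspection by T cells. Their heavy chains (HLA-B, HLA-C, HLA-E) pair with the light chain B2M, and the transporter TAP1 and TAP2 with the loading factor tapasin (TAPBP) supplies the peptides.

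The promoters of these genes are shown first. Many members were chosen as interferon targets, and the response element is a known feature of such genes. A high share of members with it therefore follows from the choice of the list and is no separate result. RefSeq promoter sequences (GRCh38.p14, 250 bases before to 50 after a gene's start) were matched for 32 of the 36 members. HLA-E, IFIT2, IRF3 and IRF7 had no entry. The response element was searched as GAAANN directly followed by GAAA on both strands, with overlapping matches counted. It was found for 18 of the 32 members (56.2%), against 1255 of 35116 promoters in the table (3.57%), or 4.38% of symbols when any promoter of a symbol counts. By role it was found for 12 of 17 interferon response genes, 5 of 7 antigen presentation genes and 1 of 8 signalling factors, IFIH1. Among members past the test described below it was found for 3 of 6, namely 1 of 4 that rose and 2 of 2 that fell. It was found for 15 of the 26 matched members that did not pass. The following stretches lie before the start of 3 members that passed and hold the motif, of ISG15 and B2M, which hold it and did not pass, and of UBE2L6, which had the largest fold change and no match in these windows. Each is written along the gene's own strand, with matched letters in capitals.
IFI44, chr1:78649729-78649788, plus strand: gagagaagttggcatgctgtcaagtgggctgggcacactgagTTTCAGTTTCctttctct
TAP1, chr6:32853801-32853860, minus strand: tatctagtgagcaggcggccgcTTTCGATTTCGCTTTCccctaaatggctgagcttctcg
IFIH1, chr2:162318685-162318744, minus strand: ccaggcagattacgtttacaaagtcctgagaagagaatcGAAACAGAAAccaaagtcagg
ISG15, chr1:1013362-1013421, plus strand: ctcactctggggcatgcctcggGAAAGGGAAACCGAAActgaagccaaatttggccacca
B2M, chr15:44711351-44711410, plus strand: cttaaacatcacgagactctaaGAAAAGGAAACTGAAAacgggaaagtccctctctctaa
UBE2L6, chr11:57567936-57567995, minus strand: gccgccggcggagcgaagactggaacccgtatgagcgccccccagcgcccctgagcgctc
In TAP1, ISG15 and B2M the capitals cover 2 overlapping matches. IFIH1 had 3 matches in its window, of which the stretch shows the nearest to the start. DTX3L and PARP9, which are transcribed away from each other, had the same match (chromosome 3, 122564332 to 122564341) in windows of both genes. It was counted for each of them. A match is a description of letters and not of binding.

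Expression was given as FPKM, a level corrected for model length and for the mapped total of the library, and sequencing depth is unknown. The FPKM of listed genes summed to between 211148 and 217637 per LINC00888 library and between 213271 and 217336 per empty vector library. All 10 prostate luminal markers were listed, and 3 of them passed the test given below as higher and 4 as lower. Of 14 markers of leukocytes and professional antigen presenting cells only CD68 was listed, at 0.709 to 0.732 FPKM with LINC00888 and 0.574 to 0.966 with the empty vector. PTPRC, CD74, CIITA and the MHC class II genes HLA-DRA, HLA-DRB1, HLA-DPA1 and HLA-DPB1 were not in the table. Of 7 fibroblast markers COL1A1 and PDGFRB were listed, with summed levels of 3.12 to 3.87 FPKM with LINC00888 and 3.21 to 3.53 with the empty vector. PDGFRB passed as higher (0.56 to 0.81 FPKM against 0.238 to 0.352, limma adjusted p = 0.0372). It met the filter of 0.5 FPKM, given below, only through its LINC00888 libraries, so its high group alone brought it into the test. The part of these markers in the results below was not tested. Of 4 endothelial markers VWF was listed, at 0.499 to 0.537 and 0.523 to 0.559 FPKM.

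Genes were tested on log2(FPKM + 0.5) with limma over all 11726 genes that reached an FPKM of 0.5 in at least 3 of the 6 libraries, with Benjamini-Hochberg adjustment over all of them and an adjusted p under 0.05 as the threshold. Of the members 35 were tested, and 4 passed as higher and 2 as lower with LINC00888. Over all genes 8.02% passed as higher and 5.46% as lower, 13.5% in all, against 17.1% of the members, so the number of members that passed was near the background. The median log2 fold change of the 35 members was -0.04, against 0.03 over all tested genes. The 6 were UBE2L6, IFI44, CMPK2 and HLA-B, which rose, and IFIH1 and TAP1, which fell. Groups did not overlap for 7 members that were higher and 8 that were lower, where 23.5% and 14.8% of all genes did so, 38.3% together. In bulk RNA, fewer cells of a type and less RNA per cell cannot be told apart. Without 1 library the count of members past the threshold was 1 (without LINC00888 library 1), 2 (without LINC00888 library 2 or 3 or empty vector library 1) or 3 (without empty vector library 2 or 3).

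**Figure D1:**
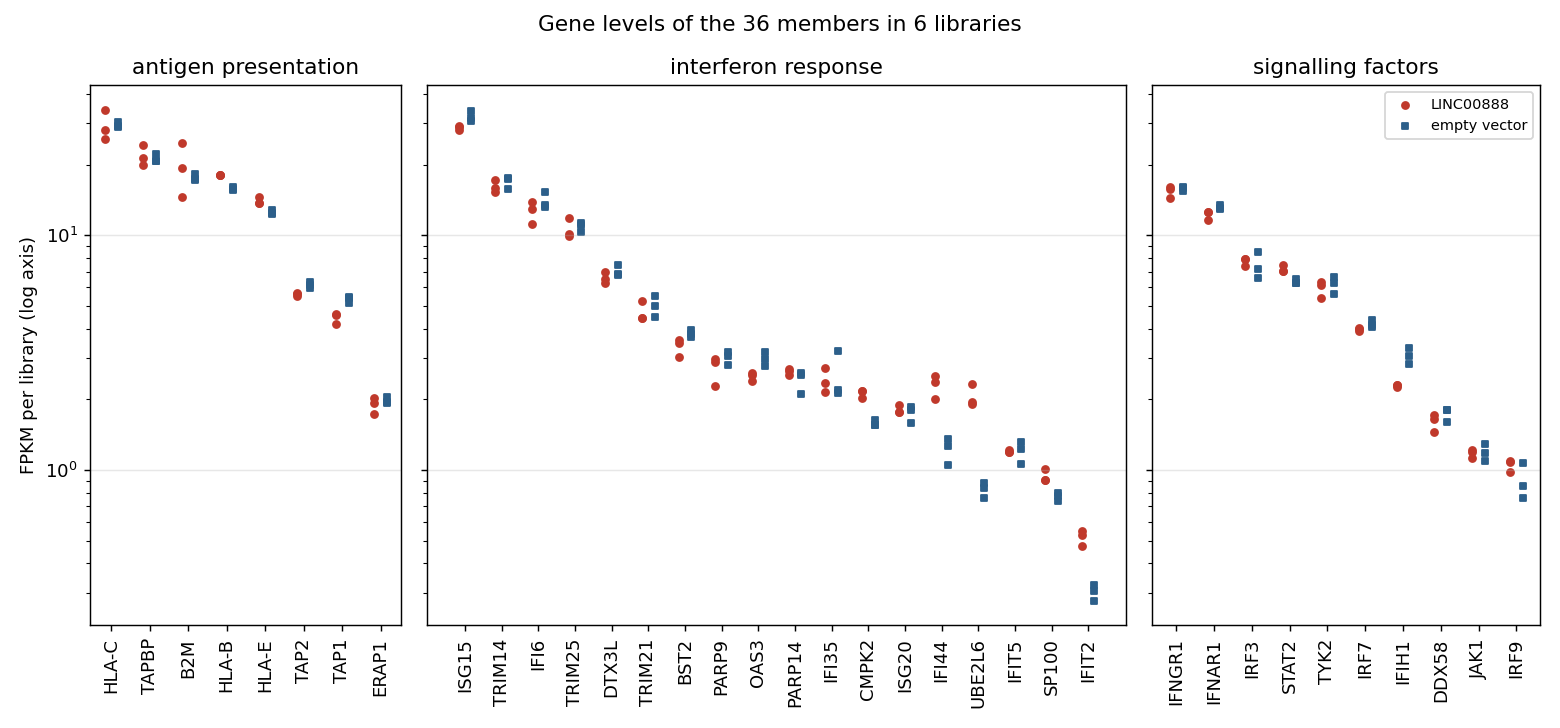
FPKM of the 36 members in each library (log axis), by role and in order of mean level, with circles for the 3 LINC00888 and squares for the 3 empty vector libraries. UBE2L6 and IFI44 stand apart between groups, while most other members lie close together, and HLA-C and B2M spread more among the LINC00888 libraries.

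**Figure D2:**
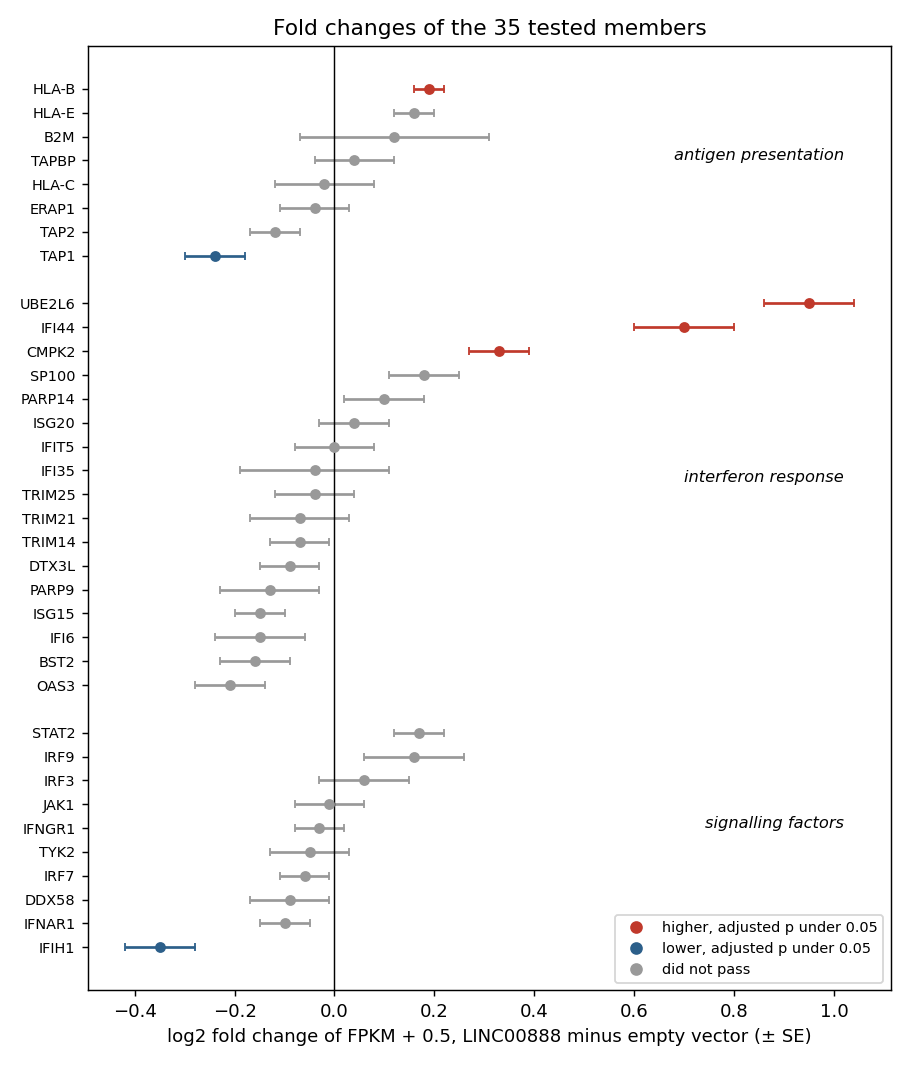
Log2 fold change (LINC00888 minus empty vector, on the log2(FPKM + 0.5) scale) with its standard error for the 35 tested members, by role. UBE2L6 at 0.95 and IFI44 at 0.70 were the highest, IFIH1 at -0.35 the lowest, and members that did not pass lay between -0.21 and 0.18.

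Among genes of antigen presentation, the class I heavy chain HLA-B rose and the peptide transporter subunit TAP1 fell, both by small amounts. They are 25% of the 8 genes, against 13.5% of all tested genes, and the role holds too few genes to compare these shares. HLA-B (ENSG00000234745.10_2, chromosome 6, 31237268 to 31324965 in the deposited table, for which the submitters name only a mouse build) had 18.0, 18.1 and 18.0 FPKM in the LINC00888 libraries and 15.6, 16.1 and 15.7 FPKM in the empty vector libraries. The groups did not overlap and the LINC00888 libraries lay within a narrow band. The mean was 18.0 ± 0.0974 FPKM against 15.8 ± 0.266 FPKM (SD, n = 3 each), a ratio of 1.14 and a log2 fold change of 0.19 ± 0.03 (SE; limma adjusted p = 0.0222). That call was lost without each library but empty vector library 2 (adjusted p up to 0.0753). TAP1 (ENSG00000168394.10_2, chromosome 6, 32812986 to 32821755), whose promoter window holds 2 overlapping motif matches, had 4.57, 4.61 and 4.17 FPKM with LINC00888 and 5.41, 5.13 and 5.43 FPKM with the empty vector. All 3 LINC00888 libraries lay below all 3 empty vector libraries. The mean was 4.45 ± 0.243 against 5.32 ± 0.168 FPKM (SD, n = 3 each), with a log2 fold change of -0.24 ± 0.06 (SE; limma adjusted p = 0.0492), and leaving out any of the 6 libraries ended the call (adjusted p up to 0.137).

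The other 6 genes of this role did not pass. HLA-E, a heavy chain read by natural killer cells, had 14.6, 13.7 and 13.7 FPKM with LINC00888 and 12.3, 12.4 and 12.8 FPKM with the empty vector (adjusted p = 0.065). TAP2, the partner of TAP1, had 5.67, 5.63 and 5.49 FPKM with LINC00888 and 6.30, 6.14 and 5.94 FPKM with the empty vector (adjusted p = 0.147). In both genes the groups did not overlap, HLA-E being higher and TAP2 lower with LINC00888. ERAP1, which trims peptides, lay lowest of the 8, at means of 1.90 and 1.97 FPKM.

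The most abundant genes of antigen presentation differed among the LINC00888 libraries more than between groups. HLA-C had 28.0, 34.3 and 25.7 FPKM with LINC00888 and 30.4, 29.2 and 28.8 FPKM with the empty vector (adjusted p = 0.931). B2M, the light chain shared by all class I molecules, had 19.4, 24.7 and 14.5 FPKM with LINC00888 and 17.2, 18.2 and 17.3 FPKM with the empty vector (adjusted p = 0.703). TAPBP, the tapasin gene, had 21.4, 24.1 and 19.9 FPKM with LINC00888 and 20.8, 20.6 and 22.2 FPKM with the empty vector (adjusted p = 0.782). In all 3 genes LINC00888 library 2 was the highest of the 6 and LINC00888 library 3 the lowest. The SD of B2M was 5.09 FPKM with LINC00888 and 0.543 FPKM with the empty vector. Summed over the 8 genes, levels were 114, 127 and 103 FPKM with LINC00888 and 110 FPKM in each empty vector library.

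The transcript table gave a different picture of HLA-C and B2M. Its values are those of single transcript models, and a gene's value in the gene table is not their sum. HLA-C-201 had 13.9, 24.5 and 15.4 FPKM with LINC00888 and 4.76, 5.58 and 6.53 FPKM with the empty vector, with no overlap (log2 fold change 1.56, limma adjusted p over all transcripts = 0.118). HLA-C-203 had 0.894, 3.59 and 0.733 FPKM with LINC00888 and 4.57, 6.01 and 5.30 FPKM with the empty vector, again without overlap (log2 fold change -1.59, adjusted p = 0.348). HLA-C-201 thus took 79.4%, 84.3% and 88.5% of the summed FPKM of the listed HLA-C transcripts in the LINC00888 libraries and 40.6%, 42.9% and 49.2% in the empty vector libraries. Neither transcript passed the test, although both stood apart between the groups. The main B2M transcript, B2M-204, had 48.0, 45.7 and 37.7 FPKM with LINC00888 and 43.4, 47.9 and 45.1 FPKM with the empty vector, so the high gene value of LINC00888 library 2 was not seen in it. Reads of class I genes can be shared between near-identical relatives, and the HLA-B model in the deposited table overlaps the HLA-C model on the same strand by 2640 bases, so the split between these genes is uncertain.

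**Figure D3:**
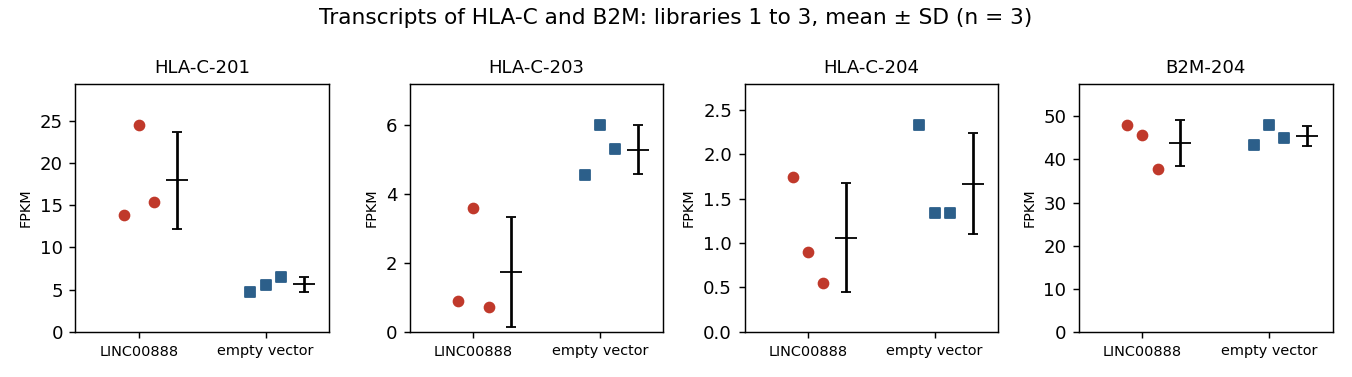
FPKM of the 3 HLA-C transcripts of highest mean and of B2M-204 in the 3 LINC00888 (circles) and 3 empty vector libraries (squares), with the mean ± SD (n = 3) beside them and axes from 0. HLA-C-201 lies at 13.9 to 24.5 FPKM with LINC00888, above 4.76 to 6.53 FPKM with the empty vector, HLA-C-203 lies lower with LINC00888, and HLA-C-204 and B2M-204 overlap.

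Across all 75 listed transcripts of members, 66 were tested and 0 passed (limma). Of all 26941 transcripts tested, 0.379% passed (0.167% higher and 0.212% lower). Groups did not overlap for 6 transcripts that were higher and 9 that were lower, where 10.7% and 9.19% of all transcripts did so, 19.9% together. Among genes past the gene-level test, the highest transcript of HLA-B, HLA-B-249, had 26.4, 29.4 and 27.2 FPKM with LINC00888 and 24.8, 23.4 and 25.2 FPKM with the empty vector (adjusted p = 0.426). TAP1-201 had 6.76, 6.52 and 6.28 FPKM with LINC00888 and 7.97, 7.69 and 8.06 FPKM with the empty vector (adjusted p = 0.356). These follow the directions of their genes without overlap. IFIH1-201 had 2.19, 2.20 and 2.24 FPKM with LINC00888 and 3.22, 3.27 and 2.68 FPKM with the empty vector (adjusted p = 0.413). CMPK2-201 had 2.53, 1.54 and 0.572 FPKM with LINC00888 and 0.796, 0.00181 and 0.00267 FPKM with the empty vector, a wide spread in both groups that overlap. Of the members absent from the gene table, 4 had a listed transcript. IFIT1-201 had 0.949 to 1.09 FPKM with LINC00888 and 0.71 to 0.956 with the empty vector. MX1-203 had 0.495 to 0.625 and 0.475 to 0.684 FPKM. OAS1-201, which was below the filter, had 0.473, 0.763 and 0.491 FPKM with LINC00888 and 0.313, 0.196 and 0.157 with the empty vector, without overlap. IRF1-201, of the transcription factor that drives class I genes after interferon gamma, had 0.755 to 0.871 FPKM with LINC00888 and 0.0192, 0.575 and 1.00 FPKM in empty vector libraries 2, 1 and 3.

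In the interferon response, UBE2L6, IFI44 and CMPK2 rose, 0 of the 17 tested genes fell by limma, and the other 14 did not pass. These calls are 17.6% of the 17, against 13.5% of all tested genes (8.02% higher and 5.46% lower). With so few genes that is near the background in number and in direction. At an unadjusted p under 0.05, ISG15 and OAS3 were lower and SP100 higher. The median log2 fold change of the 17 was -0.04, and 10 had a lower estimate. That median moved to -0.07 with median ratio scaling, -0.10 with quantile normalization and -0.11 with cyclic loess normalization. UBE2L6 (ENSG00000156587.15_3, chromosome 11, 57319129 to 57335757) encodes the ubiquitin-conjugating enzyme that passes the modifier ISG15 to target proteins. It had 1.91, 2.33 and 1.95 FPKM with LINC00888 and 0.841, 0.882 and 0.761 FPKM with the empty vector. The lowest LINC00888 library was above every empty vector library. The mean was 2.06 ± 0.227 against 0.828 ± 0.0615 FPKM (SD, n = 3 each), 2.49-fold higher, with a log2 fold change of 0.95 ± 0.09 (SE; limma adjusted p = 0.0038). UBE2L6 was the one member that passed under all 15 alternatives, with adjusted p-values of 0.00338 to 0.0369. Under the filter at 1 FPKM it was kept only through its LINC00888 libraries. Its high group alone brought UBE2L6 into that alternative, which is therefore no separate support. Its 2 listed transcripts split the gene unevenly: UBE2L6-202 had 1.17, 1.89 and 1.74 FPKM with LINC00888 and 0.0979, 1.22 and 1.05 with the empty vector. UBE2L6-201 had 1.73, 1.56 and 1.08 FPKM with LINC00888 and 1.19 FPKM in empty vector library 1, and was listed at 0 in the other two.

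IFI44, an interferon-induced antiviral protein (ENSG00000137965.10_2, chromosome 1, 79115481 to 79129763), had 2.36, 2.52 and 2.00 FPKM with LINC00888 and 1.27, 1.05 and 1.35 FPKM with the empty vector. The groups were well apart, and the response element shown above lies within 60 bases before its start. The mean was 2.29 ± 0.265 against 1.22 ± 0.153 FPKM (SD, n = 3 each), 1.88-fold higher (log2 fold change 0.70 ± 0.10 SE; limma adjusted p = 0.0128), a call lost without LINC00888 library 1 (adjusted p = 0.0518). Its single listed transcript IFI44-201 had 2.19, 2.31 and 1.88 FPKM with LINC00888 and 0.833, 0.682 and 1.12 FPKM with the empty vector (adjusted p = 0.185). CMPK2, a mitochondrial nucleotide kinase (ENSG00000134326.11_4, chromosome 2, 6980701 to 7006766), had 2.16, 2.16 and 2.02 FPKM with LINC00888 and 1.56, 1.55 and 1.63 FPKM with the empty vector. There was again no overlap, with a ratio of means of 1.34 (log2 fold change 0.33 ± 0.06 SE; limma adjusted p = 0.0221). That call was lost whichever of the 6 libraries was left out (adjusted p up to 0.0766) and with cyclic loess normalization (0.0539).

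**Figure D4:**
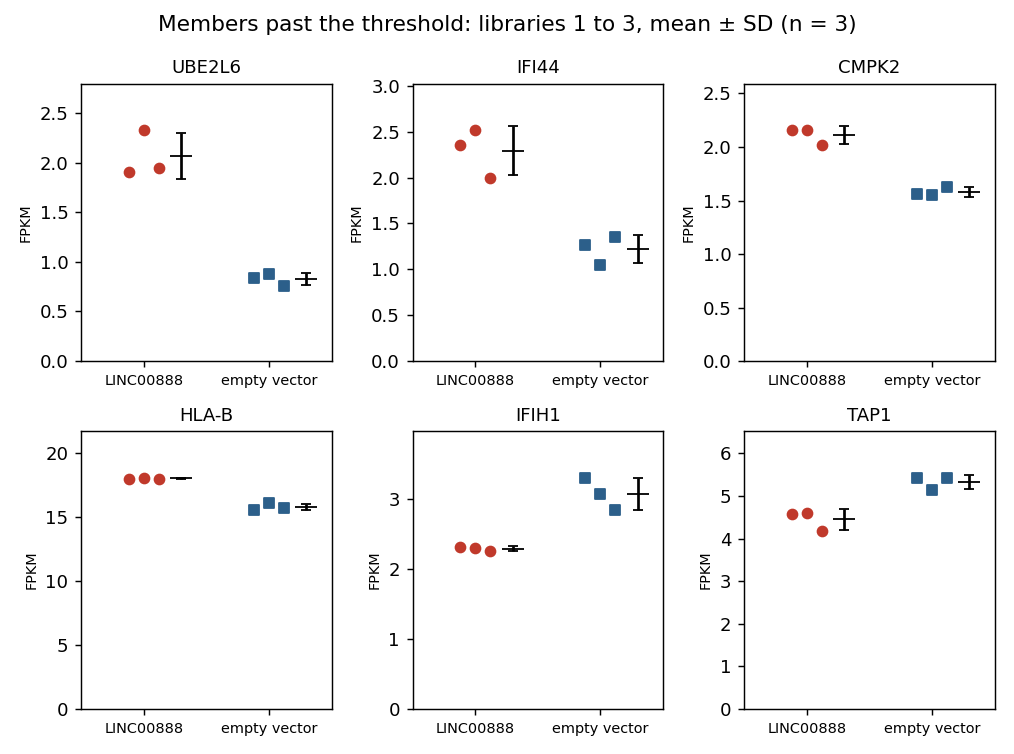
FPKM of the 6 members past the threshold in the 3 LINC00888 (circles) and 3 empty vector libraries (squares), with the mean ± SD (n = 3) beside them and axes from 0. UBE2L6 averages 2.06 FPKM with LINC00888 and 0.828 FPKM with the empty vector, and in all 6 genes the groups do not overlap.

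The modifier ISG15 itself, the member of highest mean over the 6 libraries, did not follow UBE2L6. It had 29.0, 28.0 and 29.3 FPKM with LINC00888 and 30.7, 33.7 and 31.6 FPKM with the empty vector. These values did not overlap and were lower with LINC00888, but did not pass (log2 fold change -0.15 ± 0.05 SE, adjusted p = 0.0785). HERC5, the main ligase for ISG15 in human cells, averaged 2.47 ± 0.102 FPKM with LINC00888 and 3.06 ± 0.244 FPKM with the empty vector (SD, n = 3 each; limma adjusted p = 0.0669), and USP18, which removes ISG15 from proteins, averaged 9.91 ± 0.297 and 9.33 ± 0.064 FPKM (adjusted p = 0.245). TRIM25, a ligase that modifies RIG-I, had 9.97 to 11.8 FPKM with LINC00888 and 10.3 to 11.3 FPKM with the empty vector.

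Most other effectors of the response showed small differences. TRIM14, which binds the adaptor MAVS, had 17.1, 15.9 and 15.3 FPKM with LINC00888 and 17.5, 15.8 and 17.3 FPKM with the empty vector (adjusted p = 0.517). IFI6, a small interferon-induced membrane protein, had 13.8, 12.9 and 11.2 FPKM with LINC00888 and 13.5, 13.2 and 15.2 FPKM with the empty vector (adjusted p = 0.328). In both genes the groups overlapped. OAS3, an oligoadenylate synthetase that activates RNase L, had 2.53, 2.39 and 2.59 FPKM with LINC00888 and 3.18, 2.78 and 2.96 FPKM with the empty vector. It was lower without overlap (log2 fold change -0.21, adjusted p = 0.0938) and passed with quantile normalization (adjusted p = 0.0363) and cyclic loess normalization (0.0364). SP100, a nuclear body protein, had 0.904, 1.01 and 0.904 FPKM with LINC00888 and 0.798, 0.739 and 0.772 FPKM with the empty vector (adjusted p = 0.138). BST2, or tetherin, which holds budding virus at the membrane, averaged 3.35 ± 0.285 and 3.80 ± 0.14 FPKM (SD, n = 3 each; limma adjusted p = 0.197). The neighbours DTX3L and PARP9, which form a ubiquitin ligase complex, averaged 6.58 and 2.72 FPKM with LINC00888 and 7.05 and 3.02 FPKM with the empty vector, and neither passed. PARP14, TRIM21, IFI35, ISG20 and IFIT5 had log2 fold changes between -0.07 and 0.10, also without passing.

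IFIT2, which binds viral RNA, was listed but fell below the filter. It had 0.529, 0.548 and 0.476 FPKM with LINC00888 and 0.277, 0.306 and 0.324 FPKM with the empty vector. Every LINC00888 library was above every empty vector library, and without the filter IFIT2 passed (log2 fold change 0.34, limma adjusted p = 0.0329). IFIT5 of the same family had means of 1.20 FPKM in both groups. The models of TRIM14, IFIT2, ERAP1 and IRF3 overlap NANS, LIPA, CAST and BCL2L12 on the other strand, and whether counting used strand is not given in the sources used here. In the interferon response role, members ranged from under 1 FPKM (SP100, IFIT2) to about 30.4 FPKM for ISG15, and summed levels were 106, 104 and 101 FPKM with LINC00888 and 108, 107 and 110 FPKM with the empty vector.

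Among signalling factors, the RNA sensor IFIH1 fell and 0 of 10 rose by limma, with STAT2 higher at an unadjusted p under 0.05. One call is 10% of these genes, near the 13.5% of all tested genes that passed (8.02% higher and 5.46% lower). IFIH1 (ENSG00000115267.5_2, chromosome 2, 163123589 to 163175213) had 2.31, 2.30 and 2.25 FPKM with LINC00888 and 3.30, 3.06 and 2.84 FPKM with the empty vector. The highest LINC00888 library was below the lowest empty vector library. The mean was 2.29 ± 0.0312 against 3.07 ± 0.23 FPKM (SD, n = 3 each), a ratio of 0.747 (log2 fold change -0.35 ± 0.07 SE; limma adjusted p = 0.024). The call was lost without each library but empty vector library 3 (adjusted p up to 0.0755). The related sensor RIG-I, gene DDX58, had 1.45, 1.71 and 1.65 FPKM with LINC00888 and 1.81, 1.81 and 1.60 FPKM with the empty vector, which overlap (adjusted p = 0.496). The third helicase of this family, LGP2 (gene DHX58, no member), had 0.834, 0.724 and 0.678 FPKM with LINC00888 and 1.24, 1.34 and 1.03 FPKM with the empty vector and fell (log2 fold change -0.45 ± 0.10 SE, limma adjusted p = 0.0339), a call lost without each library but empty vector library 3 (up to 0.101).

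The receptor chains and kinases did not pass. IFNGR1, a receptor chain for interferon gamma, had 16.1, 15.7 and 14.4 FPKM with LINC00888 and 16.0, 15.9 and 15.5 FPKM with the empty vector (adjusted p = 0.684). IFNAR1, a chain of the type I interferon receptor, had 12.6, 11.6 and 12.6 FPKM with LINC00888 and 13.1, 13.5 and 12.9 FPKM with the empty vector (adjusted p = 0.211). The groups overlapped for IFNGR1 and were lower without overlap for IFNAR1. TYK2 averaged 5.96 ± 0.479 FPKM with LINC00888 and 6.17 ± 0.495 FPKM with the empty vector, and JAK1, which pairs with it, 1.18 ± 0.0473 and 1.19 ± 0.10 FPKM (SD, n = 3 each). On this per-length scale JAK1 was the second lowest of the 10 signalling factors, above IRF9 at 1.05 and 0.894 FPKM.

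Transcription factors of the pathway were also within small differences. STAT2 had 7.45, 7.02 and 7.05 FPKM with LINC00888 and 6.49, 6.28 and 6.24 FPKM with the empty vector. It was higher without overlap and did not pass (log2 fold change 0.17 ± 0.05 SE, adjusted p = 0.0692). Its partner IRF9, whose model overlaps AL136295.5 on the same strand, averaged 1.05 ± 0.064 FPKM with LINC00888 and 0.894 ± 0.158 FPKM with the empty vector (SD, n = 3 each; limma adjusted p = 0.331). IRF3, which switches on interferon genes after RNA sensing, had 7.89, 7.91 and 7.41 FPKM with LINC00888 and 7.21, 8.44 and 6.58 FPKM with the empty vector (adjusted p = 0.672). IRF7, which amplifies that step, averaged 3.97 ± 0.0744 and 4.18 ± 0.145 FPKM (SD, n = 3 each; limma adjusted p = 0.466).

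A wider list of 96 interferon and antigen presentation genes outside the members had 61 in the gene table, of which 60 were tested. Of these 2 rose and 4 fell, 10.0% against 13.5% of all genes, with a median log2 fold change of 0.07. SAMHD1, which breaks down nucleotides needed by retroviruses, had 16.4, 16.2 and 16.5 FPKM with LINC00888 and 14.7, 14.0 and 14.4 FPKM with the empty vector (limma adjusted p = 0.0282). IRF2BP2, a corepressor that binds IRF2, had 36.2, 36.4 and 33.1 FPKM with LINC00888 and 29.3, 31.0 and 28.6 FPKM with the empty vector (adjusted p = 0.0331). These were the 2 that rose. PARP10, an ADP-ribosyltransferase, had 0.978, 1.28 and 0.966 FPKM with LINC00888 and 2.19, 1.64 and 2.86 FPKM with the empty vector (adjusted p = 0.0388). TRIM38, which restrains innate immune signalling, had 1.15, 1.11 and 1.13 FPKM with LINC00888 and 1.60, 1.64 and 1.48 FPKM with the empty vector (adjusted p = 0.0225). Apolipoprotein L2, gene APOL2, had 5.47, 5.59 and 5.62 FPKM with LINC00888 and 7.39, 7.13 and 6.51 FPKM with the empty vector (adjusted p = 0.0244). With DHX58 these were the 4 that fell. Leaving out 1 library ended the calls of SAMHD1 and TRIM38 whichever library it was (adjusted p up to 0.0921 and 0.0751). It ended that of IRF2BP2 for all but LINC00888 library 3 and empty vector library 2 (up to 0.106), PARP10 for all but empty vector library 2 (up to 0.12) and APOL2 for all but empty vector library 3 (up to 0.0821). The call of IRF2BP2 was also lost with eBayes without trend and robust (limma adjusted p = 0.0503).

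Some further pathway genes, chosen after their values were seen, stood apart without passing. Standing apart was common. Among the 60 tested genes of the wider list, groups did not overlap for 13 that were higher and 7 that were lower. Of all genes 23.5% and 14.8% did so, 38.3% together. IFITM1, which blocks virus entry, had 9.29, 9.16 and 9.13 FPKM with LINC00888 and 6.04, 6.18 and 3.26 FPKM with the empty vector (log2 fold change 0.82 ± 0.23 SE, limma adjusted p = 0.0732). Its model in the deposited table lies inside the IFITM2 model on the same strand, so the split between these genes is uncertain. GBP2, a guanylate-binding protein induced by interferon gamma, was below the filter at 0.0477, 0.107 and 0.023 FPKM with LINC00888 and 0.566, 0.489 and 0.478 FPKM with the empty vector, and passed as lower without the filter (log2 fold change -0.86, adjusted p = 0.00601). Other genes of the list that interferon induces strongly in many cells, such as IFI27, IFI44L, RSAD2, OAS2, MX2, CXCL10 and the immunoproteasome subunit PSMB9, were not in the gene table.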

How the data were processed

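PolyA-selected, strand-specific libraries were read as paired ends, per the labels' protocols. As tools, StringTie, HISAT2, cutadapt and FastQC stand in the submitters' processing notes, and GRCm38, a mouse build, as the genome. Identifiers in the tables are human. The human build behind the deposited positions is not stated, and these differ from the GRCh38.p14 positions of the promoters. The authors deposited FPKM per gene and per transcript, per the file headers. Whether libraries were scaled further is not given in the sources used here. One transcript line was emptied for this work and not used.

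Features were kept where 3 or more of 6 libraries reached an FPKM of 0.5, and log2(FPKM + 0.5) was compared with limma 3.58.1 in R 4.3.3 (lmFit and eBayes, robust and with a trend). Tests were two-sided, with Benjamini-Hochberg adjustment over all 11726 genes or 26941 transcripts. The pseudocount makes log2 fold changes of low genes smaller than ratios of means. On simulated data for 11726 genes the fit recovered 115 of 200 changed genes and called 9 unchanged ones. The share recovered depends on the fold sizes simulated, all of which were larger than the changes of HLA-B and TAP1. It does not give the recovery of changes as small as theirs. A gene that did not pass may therefore still have changed. No counts are given, so no counting intervals were computed.

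Members and lists were chosen with earlier results of these data known. All members could be named; values per library were given for members past the threshold, for the 3 of highest mean in each role and for the 3 of largest change that did not pass, and in part for others. HERC5, USP18, IFITM1, GBP2 and the transcripts of HLA-C and B2M were picked after their values were seen. Alternatives were pseudocounts of 0.1 and 1, no filter, a filter at 1, 3 scalings, eBayes without trend and robust, the replicate block and leaving out each library.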

Additional observations from a re-analysis of the deposited data

How the results depend on the processing

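Other pseudocounts (0.1 and 1), a filter at 1 FPKM or none, scaling by median ratios, quantile and cyclic loess normalization, and eBayes without trend and robust left 6 or 7 members, 1336 to 1594 genes and 79 to 107 transcripts past the threshold. The split of all called genes into higher and lower was 941 and 640 without rescaling, 750 and 844 with median ratio scaling, 688 and 648 with quantile normalization, and 686 and 669 with cyclic loess. In the same order, the median log2 fold change of the members was -0.04, -0.07, -0.08 and -0.09. Leaving out 1 library, with fewer samples in each fit, put 1 to 3 members, 536 to 815 genes and 22 to 45 transcripts past the threshold, where the fit with all libraries put 6, 1581 and 102. With the replicate number as a block 1 member passed, UBE2L6, with 429 genes and 0 transcripts, and 0 of the 6 called genes of the wider pathway list passed (adjusted p 0.0546 to 0.109). The labels do not tie the numbers together. Deviations of same-numbered libraries from their group means correlated at 0.0377, 0.0222 and -0.0347 across genes, so no pairing was seen. LINC00888 libraries 1 and 3 correlated best with another number. With so few libraries per group, these correlations cannot settle whether same-numbered libraries were handled together. No named member changed direction with a call. FPKM without counts leaves the depth behind low members such as SP100, IFIT2 and JAK1 unknown.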
